A study of Mus musculus with 2 samples.

Results

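The clustered protocadherins of the mouse are 58 genes on the plus strand of chromosome 18, out of 22048 protein-coding genes in the gene annotation of the series. They were taken from that annotation as every protein-coding gene on the chromosome whose symbol begins with Pcdha, Pcdhb, Pcdhga, Pcdhgb or Pcdhgc, with all 88 of their transcripts and 248 exon rows. The alpha subcluster held 14 genes with 24 transcripts, the beta subcluster 22 genes with 26 transcripts and the gamma subcluster 22 genes with 38 transcripts. The 58 genes carried 56 distinct symbols, because 2 symbols were each given to 2 members.

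The series holds 2 single-cell libraries of mouse cochlear cells taken at postnatal day 8, with 1 library per group and no replicate. The GFP library came from cochleae given Anc80-GFP, a control virus, and the Ikzf2 library from cochleae given Anc80-Ikzf2, a virus carrying the transcription factor gene Ikzf2. All animals of both groups were of the strain Myo15-Cre;Ai14, in which Cre driven from the Myo15 locus switches on the red protein tdTomato in hair cells, and cells with tdTomato were sorted before capture with a kit that reads transcripts from the 3' end. The file analysed here describes gene models and holds no value for either library, so neither expression nor the labelled cell type was examined, and every value below is a property of the models on assembly GRCm38 with no sampling error.

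Protocadherins are adhesion proteins of the cadherin superfamily, and the clustered ones are best known from neurons, where each cell displays its own combination and membranes recognise each other by matching combinations. In the alpha and gamma subclusters a long variable first exon, with its own promoter, encodes the extracellular repeats, the membrane-spanning stretch and the near part of the cytoplasmic tail, and it is spliced to constant exons that encode the shared end of the tail. Beta genes carry the whole protein in their own exon and have no constant exons. Promoter choice depends on the insulator protein CTCF and on cohesin, and the last members of the alpha and gamma arrays, called C-type, are regulated apart from the others.

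The 3 subclusters lay one after another over 911690 bases, from 36930184 to 37841873. The alpha genes covered 36930184 to 37187661, the beta genes 37264938 to 37524479 and the gamma genes 37661793 to 37841873. The interval between alpha and beta was 77276 bases and that between beta and gamma 137313 bases. The region also held 17 other genes, of which 12 lay on the minus strand. Among these were Slc25a2, a mitochondrial carrier gene, and Taf7, a subunit gene of the basal transcription factor TFIID, both between the beta and gamma arrays.

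**Figure D1:**
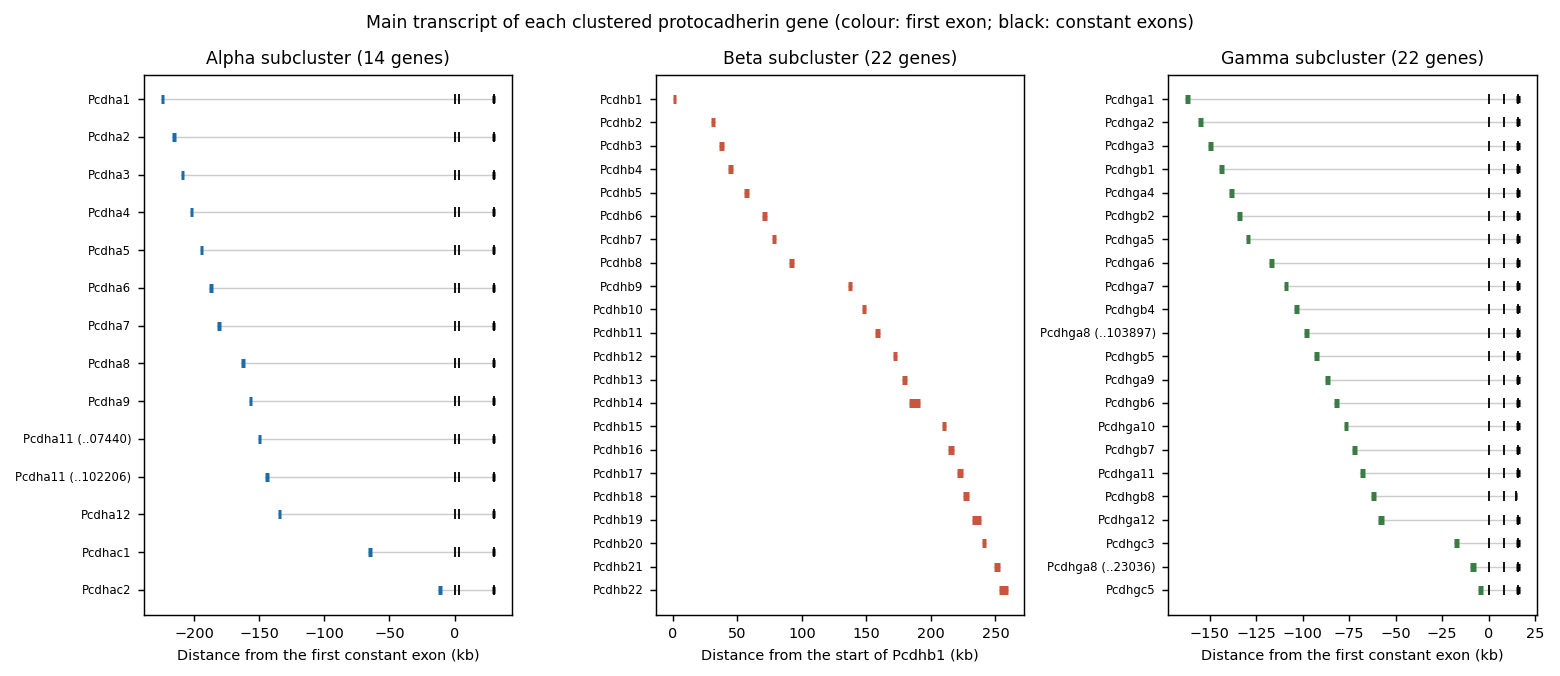
Gene models of the main transcript (the protein-coding transcript with the longest coding sequence) of each member, 1 row per gene; the x axis is distance in kb from the first constant exon (alpha, gamma) or from the start of Pcdhb1 (beta). Coloured blocks are first exons and black blocks constant exons: the 14 alpha and the 22 gamma genes run to common exons at the right of their panels, whereas the 22 beta genes stand apart from one another.

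The variable exons were of nearly one size in all subclusters when only coding bases were counted. Of the 58 members, 58 had at least 2000 coding bases in 1 exon, a property of 3.18% of all protein-coding genes. The coding stretch of the first exon ran from 2346 bases in Pcdha5 to 2562 in Pcdhac2 (median 2386.5) in alpha. It ran from 2319 bases in Pcdhb6 to 2490 in Pcdhb7 (median 2391) in beta, and from 2364 in Pcdhgb4 to 2460 in Pcdhgc5 (median 2421) in gamma. In each of the 58 members this stretch was a whole multiple of 3 bases, so every alpha and gamma variable exon joined the first constant exon in the same reading frame.

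Among related genes, the long coding exon was shared by most protocadherins outside the clusters. In a list of 12 such genes, 11 had at least 2000 coding bases in 1 exon, and Pcdh15, which encodes a tip-link protein of hair cells, had a largest coding exon of 1444 bases. In beta, the main transcript of 22 of 22 genes had all its coding bases in 1 exon, against 16.7% of all protein-coding genes. The same held for 0 of 14 alpha genes, 0 of 22 gamma genes and 0 of the 12 protocadherins outside the clusters. Only main transcripts were counted here. Pcdhb2, Pcdhb6, Pcdhb8 and Pcdhb22 each also had a protein-coding model of 2 exons.

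With untranslated bases included, first exons differed more. In alpha, the first exon of the main transcript had 2346 bases in Pcdha5 and 3028 in Pcdhac2, with a median of 2490. In gamma, it had 2421 bases in Pcdhgb8 and 2961 in Pcdhga12, with a median of 2604. In beta, where the exon is the whole transcript, the range was wider, from 2588 bases in Pcdhb1 to 8695 in Pcdhb14, with a median of 3714. The annotation gave no 5' untranslated region to the main transcript of Pcdha1, Pcdha5, Pcdha9, Pcdhb8 and Pcdhgb8, and these first exons began at the start codon.

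**Figure D2:**
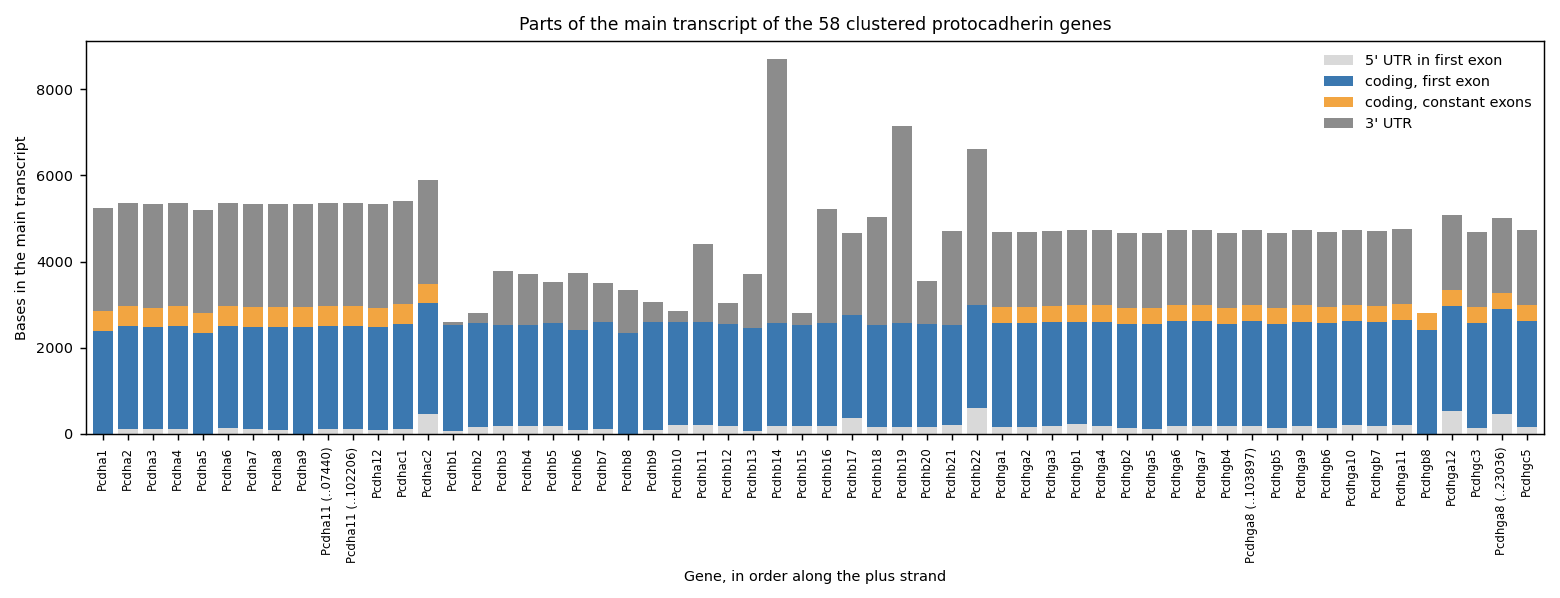
Bases in the main transcript of each of the 58 members, in order along the plus strand, stacked by part: 5' untranslated region in the first exon, coding bases in the first exon, coding bases in constant exons and 3' untranslated region (UTR). First-exon coding bases lie between 2319 and 2562 in all genes; the 3' UTR is 2401 bases in every alpha bar and 1741 or 1744 in every gamma bar but Pcdhgb8, which has none, whereas the beta 3' UTR runs from 71 bases in Pcdhb1 to 6117 in Pcdhb14.

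Alpha transcripts ended on a set of constant exons that all 14 alpha genes used. The first, of 59 bases, lay at 37156155 to 37156213, and the second, of 89 bases, at 37159265 to 37159353. The last exon, of 2712 bases, lay at 37184946 to 37187657 and held the end of the coding sequence and a 3' UTR of 2401 bases, the same in 14 of 14 members. The constant exons gave 459 coding bases, or 152 amino acids, to each alpha protein, and the full proteins had 934 (Pcdha5) to 1006 (Pcdhac2) amino acids.

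A second form of the alpha end was annotated in 5 protein-coding transcripts, 1 in each of 5 members, Pcdha1, Pcdha2, Pcdha4, Pcdha6 and the Pcdha11 gene ENSMUSG00000102206. In it an intron of 428 bases, from 37185048 to 37185475, was removed from the last exon, which left a coding exon of 102 bases and a last exon of 1913 or 2186 bases. The constant coding part then had 321 bases, or 106 amino acids, 46 codons fewer than in the unspliced form. The 3' UTR was 1842 or 2115 bases. The same intron was also removed in Pcdha6-003, a nonsense-mediated decay model with a last exon of 1678 bases and 0 coding bases in the constant exons. For the other 9 alpha members only the unspliced form was drawn, with 1 transcript each, so the number of forms went with the number of annotated transcripts.

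Gamma transcripts had constant exons of the same 2 leading lengths. The first, of 59 bases, lay at 37825021 to 37825079 and the second, of 89 bases, at 37833265 to 37833353, and both were used by 22 of 22 gamma genes. The last exon began at 37839903 and ended at 37841873 in 17 members (1971 bases) or 3 bases earlier, at 37841870, in 4 members (1968 bases). These exons gave 375 coding bases, or 124 amino acids, to proteins of 912 (Pcdhgb4) to 944 (Pcdhgc5) amino acids. The gamma 3' UTR was 1744 bases in the 17 members and 1741 in the 4.

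Pcdhgb8 was the exception in gamma. Its single model, Pcdhgb8-201, stopped at 37840129 with the end of the coding sequence and had no 3' UTR. In GENCODE release M21, a later annotation on the same assembly, the transcript belonged to another gene identifier, ENSMUSG00000103081, of biotype polymorphic pseudogene with 2 transcripts, and that gene ran to 37841870. Of the 58 members, 57 were found in M21 by identifier, and 57 of those had the same start and end.

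Despite equal lengths, the alpha and gamma constant exons were not copies of each other. The 59-base exons were 62.7% identical and the 89-base exons 54.3% identical over their aligned bases. The constant coding parts were 63.6% identical over 78.4% of their length and the 3' UTRs 60% identical over 70.3%. For scale, 58.7% to 59.8% was the range of medians between different kinds of variable exon aligned in the same way, which is described further on.

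Exons used by many genes were rare in the annotation as a whole. Of 358883 distinct exons, 1346 (0.375%) occurred with identical coordinates in at least 2 genes. Only 6 occurred in at least 10 genes, and all 6 were alpha or gamma constant exons. At 5 or more genes the number was 11, of which 4 were alpha exons, 3 gamma exons and 4 belonged to Ugt1a, the glucuronosyltransferase cluster on chromosome 1 that also joins alternative first exons to common ones. No exon was held in common with identical coordinates by beta genes.

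The last 500 exonic bases of each transcript, called the 3' window, are the part nearest to where a 3' kit reads. It counted as shared where it lay over 1 or more exonic bases of a different gene of the same strand. Shared windows were found for 37 of the 58 members (63.8%), against 3.24% of all protein-coding genes. Alpha contributed 14 of 14, gamma 22 of 22 and beta 1 of 22. The members made up 5.18% of the 714 protein-coding genes with a shared window and 0.263% of all protein-coding genes.

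The number of partners set alpha and gamma apart more than the sharing itself. The windows of 36 members met exons of at least 10 other genes, against 0.177% of all protein-coding genes (39 genes, the 36 members among them). In alpha 13 genes had 13 partners, each being every other alpha gene, and Pcdha4 had 14. In gamma 20 genes had 20 partners, and Pcdhgb8 and Pcdhgc5 had 24. Among the other protein-coding genes with a shared window, apart from 3 described next, 568 had 1 partner, 82 had 2 and 15 had 3, and the 9 Ugt1a genes had 8 each.

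**Figure D3:**
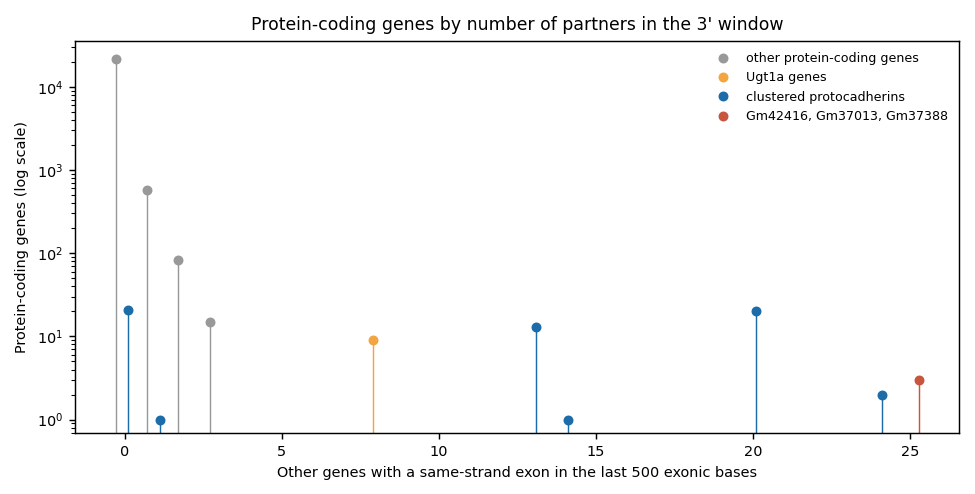
Number of protein-coding genes (y axis, log scale) by the number of other genes with a same-strand exon in the last 500 exonic bases (x axis; series are shifted slightly sideways so that they do not cover each other). Grey points end at 3 partners and the Ugt1a genes stand at 8, while alpha members stand at 13 and 14, gamma members at 20 and 24 and the genes Gm42416, Gm37013 and Gm37388 at 25.

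The remaining 3 of the 39 genes were Gm42416, Gm37013 and Gm37388, protein-coding models that bridge the clusters. Gm42416 began at 36952741, inside the variable exon of Pcdha4, and ended at 37840200 in the last gamma exon, a span of 887460 bases with 2856 exonic bases. Gm37013 began at 36969916 in Pcdha6 and Gm37388 at 36975941 in Pcdha7, and both ended at 37833296 in the second gamma exon. Each joined part of an alpha first exon to gamma constant exons, each had 25 partners and 0 exonic bases of its own, and 22 beta genes lay within each span.

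These 3 models changed what the alpha genes had to themselves. The first exon of Gm42416 covered 2410 bases of Pcdha4, and over its exons as a whole Pcdha4 had 494 bases of its own out of 5768 (8.56%), the lowest share in the clusters. Gm37013 covered 222 bases of Pcdha6 and Gm37388 338 bases of Pcdha7. Their own shares were 42.6% and 40.1%, against a median of 46.45% over the 14 alpha genes.

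A stricter count asked whether any base of a gene's windows was free of other genes' exons. There was none in 22 of the 58 members, against 0.857% of all protein-coding genes, and these were 12 of 14 alpha, 10 of 22 gamma and 0 of 22 beta genes. In alpha the exceptions were Pcdha4, with 401 own bases, and the Pcdha11 gene ENSMUSG00000102206, with 1080 own bases over the windows of 5 transcripts. The own bases came from retained-intron models, and for ENSMUSG00000102206 also from Pcdha11-002, a model with an incomplete start and 80 own bases.

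The 12 gamma genes with own window bases owed them to additional or shortened models. In 10 of them, namely Pcdhga1, Pcdhga4, Pcdhgb2, Pcdhga7, Pcdhgb4, Pcdhgb5, Pcdhga9, Pcdhga12, Pcdhgc3 and the Pcdhga8 gene ENSMUSG00000023036, a second model ended before the constant exons and had a window of 500 own bases. Pcdhgb8 had 125 own bases because its model stops early. Pcdhgc5, with 4 transcripts, had 251, from 3 models with 147, 90 and 54 own bases. The main transcript of 35 members, 14 alpha and 21 gamma, had no own base in its window, a count given for members only.

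By transcript, 51 of the 88 had a shared window and 44 had no own base in it. The counts by transcript are over members only and have no share over all protein-coding genes beside them. In alpha 22 of 24 transcripts had a shared window, in gamma 28 of 38 and in beta 1 of 26. Of the 20 protein-coding alpha transcripts 1 had an own base in the window. Of the 28 protein-coding gamma transcripts 6 did, and of the 7 retained-intron gamma transcripts 7 did.

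The distance from the 3' end at which a main transcript first left shared sequence was set by the constant exons. In 11 alpha members it was 2860 bases, the summed length of the constant exons. It was 3082 in Pcdha6, 3198 in Pcdha7 and 5270 in Pcdha4, where the bridging models added shared bases. In gamma it was 2119 bases, or 2116 for the models that end 3 bases earlier, with 2227 in the Pcdhga8 gene ENSMUSG00000103897 and 375 in Pcdhgb8.

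**Figure D4:**
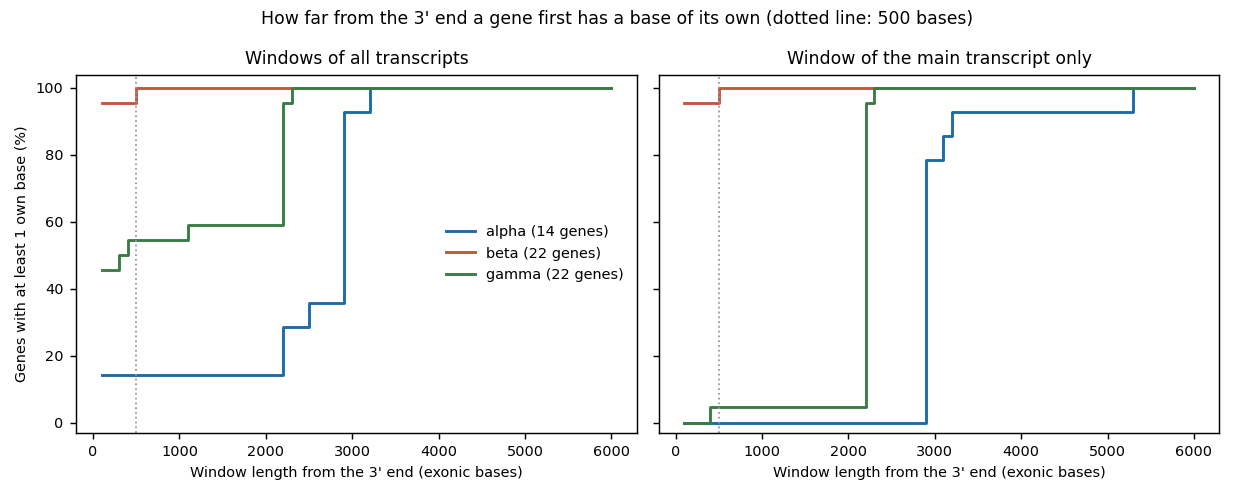
Share of genes in each subcluster (y axis, percent) with at least 1 base of their own within a window of the length on the x axis (exonic bases from the 3' end, 100 to 6000 in steps of 100), over all transcripts (left) and for the main transcript (right); the dotted line marks 500 bases. On the right, alpha stays at 0 genes up to 2800 bases and reaches 11 of 14 at 2900, gamma goes from 1 to 21 of 22 genes between 2100 and 2200, and beta is complete from 500 bases on.

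Longer windows reached own bases in more genes. With all transcripts counted, 9 of 14 alpha and 0 of 22 gamma genes had no own base in the last 2500 bases, and at 3000 bases Pcdha7 was the 1 gene left. The sources used here do not say how reads in exons of several genes were counted in the 2 libraries.

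Sharing outside the constant exons was limited. All 91 alpha pairs shared between 2860 and 2864 exonic bases and all 231 gamma pairs between 375, where Pcdhgb8 was in the pair, and 3154. The highest value belonged to Pcdhgb1 and Pcdhga4, because the second model of Pcdhgb1 has an exon that lies over 1038 bases of the Pcdhga4 variable exon. This left Pcdhga4 with 33.2% of its exonic bases to itself, the lowest share in gamma, where the median was 56%. The second model of Pcdhgb4 likewise covered 108 bases of the Pcdhga8 gene ENSMUSG00000103897.

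Of 231 beta pairs 1 shared exonic bases. Pcdhb21 ended 455 bases inside the start of Pcdhb22, so its window had 45 own bases, whereas the window of Pcdhb22 was its own. Other neighbours came close without overlapping: 10 bases lay between Pcdhb17 and Pcdhb18 and 135 between Pcdhb19 and Pcdhb20. For 20 of the 22 beta genes the own share of exonic bases was 100%, with 90.3% in Pcdhb21 and 93.1% in Pcdhb22.

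The beta 3' UTRs lay in each gene's own exon, apart from the last 455 bases of Pcdhb21, and varied widely. They ran from 71 bases in Pcdhb1 to 6117 in Pcdhb14, with a median of 1213.5 and quartiles of 586.5 and 2109.75. Pcdhb19 had 4569 bases and Pcdhb22 had 3614, while Pcdhb10 had 248 and Pcdhb2 had 249. Over the 19943 protein-coding genes with a 3' UTR the median was 851, and 16 of 22 beta genes, 14 of 14 alpha genes and 21 of 21 gamma genes with a 3' UTR were above it. The alpha genes share a 3' UTR, as do the gamma genes, so only the beta count is over different ones. In the 12 protocadherins outside the clusters, of which 0 had a shared window, the range was 596 to 5128 with a median of 3584.

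Few members had an antisense gene at a 3' end. An exon on the opposite strand lay in the window of 1 of the 58 members, the Pcdha11 gene ENSMUSG00000102206 with Gm10545, against 11.5% of all protein-coding genes. The 58 members are not separate 3' ends, so the 2 shares are not alike. A last exon was common to 14 alpha genes, and 17 and 4 gamma genes had last exons that differ by 3 bases. Over all their exons, windows included, 9 members were met by a minus-strand antisense gene, 4 in alpha, that Pcdha11 gene among them, 1 in beta and 4 in gamma, a count not made for other genes. Examples were Gm38225 over Pcdha4, Gm37446 over Pcdhb12 and BC037039 over Pcdhgc3.

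Along the strand, the distance from a variable exon to the constant exons differed by over an order of magnitude. In alpha it fell from 223482 bases for Pcdha1 to 133531 for Pcdha12, the last before the C-type genes, then to 63583 for Pcdhac1 and 9624 for Pcdhac2. In gamma it fell from 160655 bases for Pcdhga1 to 56480 for Pcdhga12, and was 16043 for Pcdhgc3, 7037 for the Pcdhga8 gene ENSMUSG00000023036 and 2886 for Pcdhgc5. The largest gap in both arrays preceded the C-type genes, 67389 bases after Pcdha12 and 37869 after Pcdhga12, against medians of 4845 and 2781 between first exons of neighbours. In beta the median gap was 4027 bases and the largest, 42250, followed Pcdhb8.

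The 2 symbols held by 2 members each were Pcdha11 and Pcdhga8. Pcdha11 was given to ENSMUSG00000007440, which RefSeq names Pcdha10 and M21 Pcdha11, and to the next gene along the strand, ENSMUSG00000102206. Pcdhga8 was given to ENSMUSG00000103897, which lies among the other Pcdhga genes, and to ENSMUSG00000023036, which lies between Pcdhgc3 and Pcdhgc5 and is named Pcdhgc4 in M21 and in RefSeq. Pcdhgc4 is a C-type gene known for its part in neuron survival. A table keyed on the deposited symbols would hold 56 names for the 58 genes, and over the whole annotation 56 symbols were held by more than 1 gene.

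The variable exons were compared by sequence within and between kinds, which were set by subcluster and not from the sequences. Identity was taken over the coding stretch of the first exon, aligned end to end for each pair of members, with the 5 C-type genes (the Pcdhga8 gene ENSMUSG00000023036 included) kept apart. The 12 alpha genes were 74.8% to 85% identical to one another (median 77.7% over 66 pairs), with Pcdha7 and Pcdha8 highest. The 22 beta genes were 59.6% to 89.8% identical (median 74.8% over 231 pairs). The 19 gamma genes were 58.3% to 80.7% identical (median 68.3% over 171 pairs). Between kinds, medians were 58.7% to 59.8%, so the median of each of the 3 kinds stood above that level. The lowest beta and gamma pairs, at 59.6% and 58.3%, did not stand above it.

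Beta held the closest pairs, and also a gene far from the rest of its kind. Pcdhb7 and Pcdhb9 were 89.8% identical, Pcdhb6 and Pcdhb8 89.7%, and Pcdhb11 and Pcdhb12 88.4%. Pcdhb1, the first of the array, was at most 62.3% identical to any other gene, near the level between kinds, and it also had the shortest 3' UTR. The nearest relative was a gene of the same kind for 12 of 12 alpha, 22 of 22 beta and 19 of 19 gamma genes, and it was an adjacent gene, on either side along the strand, for 5, 7 and 3 of them.

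Gamma split by name. Pcdhga genes were 68.1% to 79.3% identical to one another (median 71% over 66 pairs) and Pcdhgb genes 70.3% to 80.7% (median 72% over 21 pairs). Across the 2 names the range was 58.3% to 62.6% (median 60.6% over 84 pairs), below every pair within a name, although Pcdhga and Pcdhgb genes alternate along much of the strand. The C-type genes were 58.3% to 61.5% identical to one another (median 59.8% over 10 pairs), close to the medians between kinds, and the nearest relative was another C-type gene for 2 of 5.

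**Figure D5:**
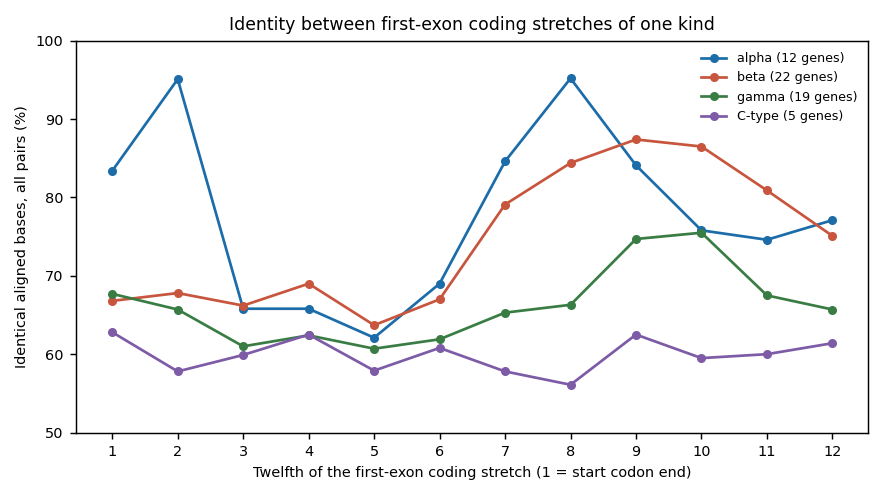
Identity (y axis, percent, starting at 50) is the share of identical among aligned bases, pooled over all pairs of the same kind. It is given for each twelfth of the first-exon coding stretch (x axis, 1 at the start codon). Alpha reaches 95.1% in part 2 and 95.2% in part 8 and falls to 62.1% in part 5, beta and gamma are highest in parts 9 and 10, and C-type genes stay between 56.1% and 62.8%.

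Identity was uneven along the variable exons. Alpha genes were 95.1% identical in the second of 12 equal parts and 95.2% in part 8, and 62.1% in part 5. Beta genes ran from 63.7% in part 5 to 87.4% in part 9, and gamma genes from 60.7% in part 5 to 75.5% in part 10. All 3 kinds thus had their lowest identity in part 5, although gamma part 3, at 61%, was close to it. The parts were not assigned to protein domains. C-type genes lay between 56.1% and 62.8% throughout.

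Near-identical copies of the 3' windows elsewhere were looked for among the M21 transcripts, at 95% identity or more over at least 100 bases. Only the window of each main transcript was searched. For alpha and gamma, hits on genes of the same subcluster and on clone-named genes such as Gm42416 were left aside. With these left aside, 0 of 14 alpha and 0 of 22 gamma windows had one. Apart from that of Pcdhgb8, these windows repeat the shared last exons, so the counts are not over separate sequences. In beta, 1 of 22 did, Pcdhb21 with Pcdhb22 at 100% over 455 bases, which is the overlap of position described above. At 80% or more over 100 bases, 7 beta windows had a match, that of Pcdhb21 among them. The best matches of Pcdhb4, Pcdhb5 and Pcdhb14 were Gm38257, Gm45388 and Dlg4, which are not members. Pcdhb2 matched Pcdhb15 (81.1% over 132 bases). Pcdhb10 matched Pcdhb11 (86.6% over 357 bases) and Pcdhb15 matched Pcdhb22 (86.8% over 151 bases). The 3' UTR of Pcdhb10 has 248 bases, so its match also took in coding bases. The windows of Pcdhb2 and Pcdhb15, with 3' UTRs of 249 and 263 bases, also reached coding bases.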

How the data were processed

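The deposited file is the authors' gene annotation, which gives positions in bases and text fields in 1511492 rows with 5 header lines and 0 columns of per-sample values. Per the file headers it follows GRCm38 patch 4 with a gene build of 2016. Cell Ranger 2.0.2 is named in the submitters' processing notes with no role, and the sources used here name no aligner. Depth concerns no value, and with 1 library per group no comparison of GFP with Ikzf2 was made.

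Members were selected by chromosome, biotype and symbol. Windows, partners, constant exons (identical coordinates in at least 2 members) and own bases were computed over all 27998 mouse genes of the annotation, and no test was used. The text names the first and last gene of each array, those with extreme exon or 3' UTR lengths, C-type genes, exceptions in sharing, members with more than 3 transcripts and outside partners. Other genes named were chosen after their values were seen. Members and lists were chosen with earlier results of these data known. Comparison lists were 12 protocadherins outside the clusters, 9 Ugt1a genes and 18 regulators or partners.

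Sequences came from GENCODE M21 transcripts, in which 88 of 88 member transcripts had the same identifier, version and exons. Pairs were aligned globally with Biopython 1.88, with identity counted over aligned bases, and copies were searched with BLAST+ 2.17.0. RefSeq symbols were matched by transcript accession for 57 members. Python 3.11.15, NumPy 2.4.6 and Matplotlib 3.10.9 were used. The window computation was tested on simulated data, with 200 of 200 genes right. Each simulated gene had a single transcript and no more than a single partner, so genes with several of either were not tried. Alternatives were other window lengths and overlaps, transcript and partner filters, either strand, merged exons and M21 models, and 4 of them, on own bases, were added after seeing the data.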

Additional observations from a re-analysis of the deposited data

How the results depend on the processing

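The counts of shared windows (37 members, with 14 alpha, 1 beta and 22 gamma) were the same on either strand, without clone-named partners, with partners or transcripts limited to protein-coding ones, with 100 bases as the least overlap and with windows of 200 or 1000 bases, and were 36, 14, 1 and 21 with M21 models, where Pcdhgb8 was not found by identifier. Median 3' UTR lengths did not move when the median 3' UTR of each gene was used.

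The count of members with no own base in the window (22, with 12 alpha, 0 beta and 10 gamma) depended on the window and on the models counted. With 200 bases it was 25, with 12 alpha, 12 gamma and 1 beta gene, which is Pcdhb21. With protein-coding transcripts only it was 30, with 13 alpha, 0 beta and 17 gamma genes. Chosen after seeing the data, 2500 bases gave 9 members, 0 of them gamma, and 3000 bases gave 1 member, with 1 alpha and 0 gamma. Also added, the main transcript alone gave 35 members, 21 of them gamma, and complete protein-coding transcripts alone gave 32 members, 18 of them gamma.

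Constant exons numbered 6 in alpha, 0 in beta and 4 in gamma by identical coordinates. When overlapping exons were merged the counts were 3 in alpha, 1 in beta and 5 in gamma. Merging also takes in overlaps that are not constant exons. In beta the only overlap was that of Pcdhb21 with Pcdhb22. In gamma, Pcdhgb1 overlapped Pcdhga4, and Pcdhgb4 overlapped the Pcdhga8 gene ENSMUSG00000103897, outside the constant exons. Median variable exon lengths by the longest first exon were 2494 (alpha), 3714 (beta) and 2607.5 (gamma) bases. They were 2490 in alpha and 2604 in gamma by the transcript with the longest coding sequence, and 2386.5, 2391 and 2421 by coding bases.

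No paired analysis was possible because there is 1 library per group and the file analysed holds no value per sample. For the same reason the comparison of GFP with Ikzf2 expression was not run. The values describe models, which depend on the annotation and say nothing of which transcripts hair cells make.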

Other observations

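Base composition of the first-exon coding stretches also differed by kind. Median GC content was 53.8% in the 12 alpha genes, 51.4% in the 22 beta genes, 52.3% in the 19 gamma genes and 54.8% in the 5 C-type genes, with overlapping ranges. The CpG ratio is the observed number of CpG dinucleotides over that expected from C and G content. With C-type genes kept apart, it was 0.604 to 0.773 (median 0.671) in alpha and 0.319 to 0.501 (median 0.437) in beta, without overlap. Gamma spanned both, from 0.366 in Pcdhga1 to 0.772 in Pcdhga12 (median 0.568). Within gamma, Pcdhgb genes ran from 0.568 in Pcdhgb1 to 0.763 in Pcdhgb5, and most Pcdhga genes lay below that range. The C-type genes had 0.364 to 0.71 (median 0.452). Pcdhac1 (0.414) and Pcdhac2 (0.489), which lie in the alpha array, were within the beta range. So were Pcdhgc5 (0.364) and the Pcdhga8 gene ENSMUSG00000023036 (0.452) of the gamma array, but not Pcdhgc3 (0.71). CpG sites in variable exons and their promoters are known to be methylated in clustered protocadherins that are not chosen for expression, and methylation was not analysed here.

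Genes whose products regulate or join the clustered protocadherins were looked at in the same way. Of 18 such genes, among them Ctcf, the cohesin genes Rad21, Smc1a and Smc3, the chromatin gene Smchd1 and the kinase genes Fyn and Ret, 0 had a same-strand shared window, against 3.24% of all protein-coding genes. An opposite-strand exon lay in the window of 3 of them (16.7%), Ctcf, Setdb1 and Wiz, against 11.5% of all protein-coding genes. In the Ugt1a cluster, where alternative first exons also join common ones, 9 of 9 genes had a shared window and 6 of 9 had no own base in it, with constant exons of 132, 88 and 220 bases and a last exon of 871 or 878 bases on chromosome 1. Its largest coding exons had a median of 858 bases, shorter than the variable exon of any clustered protocadherin.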
